A study of Mus musculus with 40 samples.

Results

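The cell cycle genes described here are 47 genes whose products license and copy DNA, drive the steps of the cycle, or build and divide the mitotic spindle. They were chosen by symbol from the deposited table of 29411 genes, and each was represented by 1 probe, the one with the highest mean level over 38 arrays. RNA of stromal vascular cells (SVCs) from subcutaneous fat of C57BL/6J mice was hybridised to 1-colour Agilent arrays, to follow expression on different diets up to the label week 18. The series text calls the cells infiltrating macrophages. Diets began after weaning, at 3 to 4 weeks of age, in groups of 30 animals. The low-fat control diet (LFC, 11 arrays) had 10% of calories from fat, and the high-fat diet (HFC, 11 arrays) had 60%, with more sucrose. HF5 (6 arrays), HF20 (5 arrays) and HF75 (5 arrays) received the same high-fat diet with 5, 20 or 75 μg of Kal-1, a botanical formulation. LFC and HFC had arrays labelled days 1, 6, 10 and 14 and weeks 0, 3, 6, 9, 12, 15 and 18. HF5 had weeks 3 to 18, and HF20 and HF75 had weeks 3 to 15. A diet had 1 array at each of its time labels. Weeks were counted from day 14, so day 14 and week 0 stand for the same time on diet and week 18 for day 140, while each label was kept as a block of its own here. The series text speaks of biological replicates, but no label says how many mice gave the RNA of an array. A p-value here thus measures only the spread between these arrays, which may be technical. As the arrays of a diet differ in time label, this spread also holds any change with time. Of 40 arrays, 2 had conflicting labels and joined no group.

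Cells that enter the cycle load the MCM helicase on replication origins, copy their DNA in S phase with the help of the PCNA clamp and newly made nucleotides, and then separate the chromosomes on a spindle built by kinesins and controlled by mitotic kinases. Many of these genes are transcribed only in dividing cells, with the E2F factors acting around the start of S phase and B-MYB and FOXM1 before mitosis. In fat, dividing cells can be preadipocytes, endothelial cells or leukocytes, and lymph nodes embedded in subcutaneous fat hold dividing lymphocytes.

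The tissue label was set against marker lists. A level is the log2 intensity of a probe minus the 75th percentile of its array, and a list's level is the mean over its genes. The macrophage list of 8 genes had all genes well above background on 34 of 38 arrays, with levels from -1.65 to 2.47 (median 0.60), and Cd14 was most often its highest gene. The fibroblast and preadipocyte list had a median of 4.38, the endothelial list 2.44 and the adipocyte list 1.62, so markers of other cells were measured beside those of macrophages. The T cell list ranged from -4.65 to 2.36 (median -1.13, Cd3d most often highest), the B cell list from -4.95 to 1.45 (median -2.36, Cd79b) and the lymph node stroma list from -4.99 to 1.96 (median -1.69, Ccl19). These upper ends leave out the dim LFC array of week 3, where a gene not well above background was raised to a floor of -0.02, and where 2 of 5 B cell genes and 3 of 6 lymph node genes were well above background (list levels of 2.17 and 2.68). The germinal centre list had a median of -5.08 and the keratinocyte list -4.92, with all genes well above background on 3 arrays and 1 array. The skeletal muscle list had a median of 1.41 and the erythroid list -1.36.

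There were 3 LFC arrays that stood apart. Medians of the members, roles and further lists that include LFC are given with all arrays. Many are also given without 1 or more of these 3. The LFC array of week 3 was dim, with 17.2% of its probes well above background, 14 of the 47 members among them and 0 of the 8 macrophage markers. On the LFC array of day 14, 9104 spots were marked as outliers by the scanner software, which left 37 members with a value. The LFC array of week 18 had the lowest fibroblast (-5.11), endothelial (-4.94) and adipocyte (-5.64) lists, while other arrays were at or above 2.40, -1.79 and -0.89. Dcn, Lum, Col3a1 and Pdgfra were not well above background on it, nor were Adipoq, Lep, Plin1, Cidec and Retn. It also had the highest immature myeloid list (5.65, against 0.45 on the dim array of week 3 and at most -0.44 elsewhere, Ltf most often highest) and the highest erythroid list (4.50, at most 2.99 elsewhere, Hbb-b1 most often highest). Its macrophage list was at 1.5, with 8 of 8 genes well above background. On the HFC array of day 1, the macrophage and lymph node lists were the lowest of the 38 arrays in groups.

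Across the arrays, the members moved largely as a block. The median level of the members on the LFC arrays was lowest at week 12 (-3.10) and highest at week 18 (3.23). On HFC it was lowest at day 1 (-3.06) and highest at day 6 (-0.30). HF5 arrays lay between -2.53 at week 9 and -0.31 at week 3. On HF20 the median was -1.02 at week 3, -2.27 at week 6, -1.93 at week 9, -2.46 at week 12 and -2.29 at week 15, and on HF75 it was -0.48, -2.12, -0.49, -0.98 and -2.79 at those weeks. The groups overlapped, and LFC week 18 lay above every other array. Over 36 arrays (without LFC day 14 and LFC week 3), the median correlation between pairs of members was r = 0.78, a description over arrays that share diets and time labels, and it was 0.69 without LFC week 18 as well. Ccnb2 and Birc5 were closest to the other members (median r = 0.89), while Kif11 (0.17), Racgap1 (0.27), Bub1 (0.28) and Gins1 (0.35, and 0.05 without LFC week 18) followed them least. Among 19991 genes, those most alike to the mean of the members over 38 arrays were Cdca5 and 2810433K01Rik (r = 0.98), Depdc1b, Ppil5 and Ncapg (0.97), and E2f8, Gm5593, Neil3, Sgol1 and 1190002F15Rik (0.96).

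**Figure D1:**
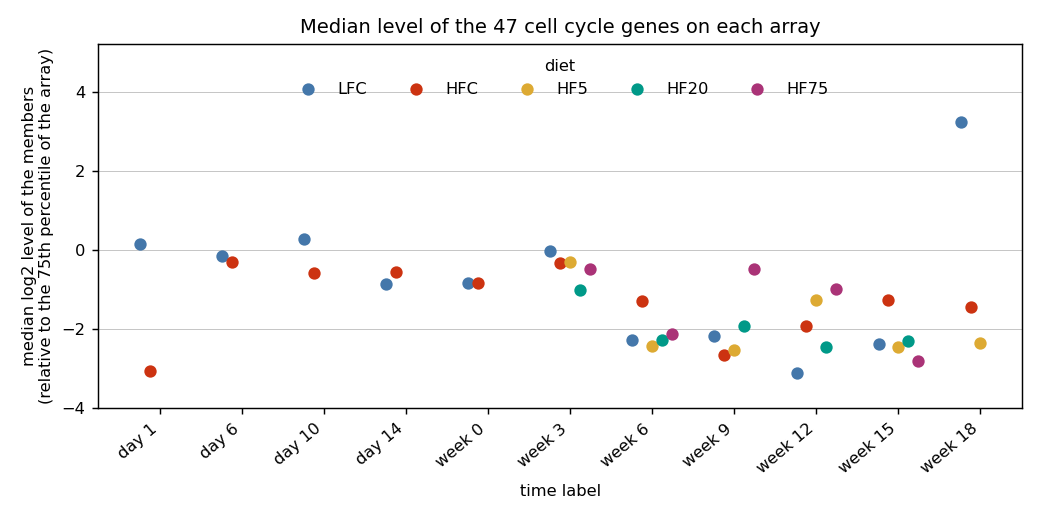
The median log2 level of the 47 members on each array, relative to the array's 75th percentile, is plotted against the time label and coloured by diet. LFC stands at -3.10 at week 12 and at 3.23 at week 18, and HFC is lowest at day 1 (-3.06).

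HFC was first set beside LFC at each time label, with 1 array a side and so no replicate error. At day 1, 2 of 46 members measured were at least 2-fold higher on HFC (36.4% of all genes) and 38 at least 2-fold lower (20.2%), with a median difference of -3.14 among members and 0.40 among genes. The T cell list differed by -5.95 between these arrays and the lymph node list by -6.95, and their part in the result was not tested. At day 6, 7 of 47 were higher (40.6% of genes) and 2 lower (12.7%), with medians of 0.31 and 0.64. There the T cell list differed by -2.17, the B cell list by -2.40 and the lymph node list by -1.94, opposite in sign to the members. At day 10, 1 of 42 was higher (10.3%) and 11 were lower (13%), with medians of -0.62 and -0.10. The members were thus below the genes' median at these first labels, most of all at day 1. At day 14, where LFC had the outlier spots, 21 of 37 were higher (38.7%) and 7 lower (41.9%), with medians of 1.49 and -0.09. At week 0, 2 of 47 were higher (4.35%) and 0 lower (2.09%), with medians of -0.17 and 0.02.

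At week 3, against the dim LFC array, 2 of 47 members were at least 2-fold higher (11.4% of genes) and 28 lower (57.6%), with medians of -1.19 and -1.47. Of the 14 members well above background on both arrays, 10 were lower (median -1.50). The other members were not well above background on the dim array. At week 6, 16 of 45 were higher (12.1%) and 0 lower (11.9%), with medians of 0.73 and 0.05. There the T cell list differed by 3.17, the macrophage list by 2.19 and the skeletal muscle list by -7.28. At week 9, 0 of 45 were higher (7.31%) and 2 lower (7.9%), with medians of -0.26 and 0.03. At week 12, 30 of 45 were higher on HFC (23.2%) and 2 lower (23.6%), with medians of 1.42 and -0.11. Week 15 gave 28 of 46 higher (7.32%) and 2 lower (17.4%), with medians of 1.21 and -0.08. In weeks 12 and 15 most members measured were thus at least 2-fold higher on HFC. The T cell list differed in the same direction, by 2.95 and 2.26, and so did the B cell list, by 2.04 and 3.70. The skeletal muscle list differed by 9.28 and the adipocyte list by -2.93 at week 12. The immature myeloid list differed by 2.21 and the keratinocyte list by -2.37 at week 15. At week 18, 1 of 47 was higher (26.4%) and 44 were lower (20.6%), with medians of -4.39 and -0.04. There the fibroblast list differed by 9.38, the adipocyte list by 7.53 and the immature myeloid list by -7.18. The T cell list (1.70) and the lymph node list (3.62) differed in the direction opposite to the members, and the B cell list (-1.07) in the same direction. The part of these lists in the differences was not tested, and in such bulk RNA fewer dividing cells and less RNA of these genes per cell cannot be told apart.

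Over the 11 pairs of arrays with the same time label, limma called 0 of 46 members tested at an adjusted p of 0.05, as it did 0% of 20827 genes. At an unadjusted p under 0.05 there were 0 members and 641 genes (3.08%). An unpaired t-test of the 11 HFC against the 11 LFC arrays, pooled over time labels, gave 0 members and 306 genes unadjusted and 0 adjusted. The methods' own test, which compares repeats at each time, could not be run with 1 array a side. The fitted difference was below 0 for 39 members and above 0 for 7, with a median of -0.50, against -0.04 over all genes tested. This median was -0.09 without the week 18 pair, -0.20 without the day 1 pair, -0.57 without the pairs of LFC day 14 and week 3, and -0.06 without those and week 18, and it was -0.01 with array quality weights, -0.25 with normexp and -0.33 after quantile normalization. Without week 18, 27 members were below 0 and 19 above. Marker lists moved as well, with 0 genes called. The endothelial list had a median difference of 1.29 (6 of 6 higher) and the fibroblast list 1.26 (7 of 7 higher), and without week 18 these were 0.62 and 0.41. The immature myeloid list was at -1.04 (7 of 7 lower), or -0.49 without week 18, and the keratinocyte list at -1.97 (4 of 4 tested lower, 2 at an unadjusted p under 0.05), or -2.25 without week 18. For the adipocyte list the difference was 0.64 (-0.07 without week 18) and for the erythroid list 0.52 (0.67). For the B cell list it was -0.55 (-0.47) and for the lymph node list -0.48 (-1.02). The T cell list was at -0.03 (-0.20), the skeletal muscle list at -0.06 (-0.51) and the macrophage list at 0.21 (0.29). By pair, the skeletal muscle list ranged from -10.15 at week 9 to 9.28 at week 12. The part of these lists in the members' shift was not tested. The pair of day 1 was the only one scanned on different days. In the 4 pairs that shared a slide it was 0.31 at day 6, -0.17 at week 0, -1.19 at week 3 and -0.26 at week 9, and -0.52 with the slide as a random block. Ttk, a spindle checkpoint kinase, was well above background on too few arrays to be tested.

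Among the proliferation markers (median difference -0.61, and -0.18 without the week 18 pair), Mki67, which coats mitotic chromosomes, ranged on LFC from -1.36 at week 12 to 6.44 at week 18 (median 2.46) and on HFC from -2.47 at day 1 to 2.55 at week 3 (median 2.03). The HFC range lay mostly inside that of LFC, and the difference was -0.70 (SE 0.69, adjusted p = 0.931), higher on HFC in 5 of 11 pairs, and -0.25 (SE 0.63) without week 18. Top2a, which untangles DNA, ranged from -6.15 at week 12 to 2.62 at week 18 on LFC (median -2.47) and from -4.61 at week 9 to -0.58 at day 10 on HFC (median -2.26). It was higher on HFC in 5 of 10 pairs, and the groups overlapped. The licensing and helicase genes had a median of -0.23, with 2 of 10 above 0, and without week 18 a median of 0.08, with 6 of 10 above 0. Mcm6, a helicase subunit, had LFC levels from -0.58 at week 12 to 6.01 at week 18 (median 3.23) and HFC levels from -0.68 at day 1 to 4.07 at day 6 (median 2.94). Mcm4, another subunit, ranged from -0.25 at day 14 to 4.84 at week 18 on LFC (median 2.46) and from 0.79 at day 1 to 3.05 at day 6 on HFC (median 2.66). Both had overlapping groups and differences near 0, with 0.06 (SE 0.71) for Mcm6 and -0.07 (SE 0.45) for Mcm4. Without week 18 these were 0.43 (SE 0.70) and 0.12 (SE 0.46).

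With all arrays, the clamp and nucleotide supply genes were the role nearest to 0 (median -0.10). Without week 18 they were at 0.23, and the kinases were nearest (-0.02). Pcna, the sliding clamp of the DNA polymerases, ranged on LFC from 0.27 at day 14 to 6.08 at week 18 (median 3.35) and on HFC from 2.70 at day 1 to 4.68 at day 6 (median 3.63). Tyms, which makes thymidylate, ranged from -0.21 at day 14 to 3.95 at week 18 on LFC (median 1.11) and from 0.21 at week 6 to 2.32 at day 6 on HFC (median 1.11). Pcna was higher on HFC in 7 of 11 pairs and Tyms in 5 of 11, with all HFC arrays inside the LFC range. The G1/S cyclins and factors had a median of -0.68, and -0.30 without week 18. E2f2, an activator of S phase genes, ranged from -2.02 at week 6 to 6.56 at week 18 on LFC (median 0.11) and from -0.78 at week 12 to 2.13 at week 3 on HFC (median 1.26). Ccne1, the cyclin that drives entry into S phase, ranged from -2.52 at day 14 to 4.35 at week 18 on LFC (median 0.58) and from -1.15 at week 12 to 1.96 at day 6 on HFC (median -0.55). The LFC ranges of both enclosed those of HFC, and Ccne1 was higher on HFC in 4 of 11 pairs.

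All 5 mitotic cyclin and anaphase-promoting complex genes had differences below 0 (median -0.48), but 3 of 5 without week 18 (median -0.08). Cdc20, which activates that complex, ranged on LFC from -2.71 at week 12 to 4.72 at week 18 (median 1.24) and on HFC from -1.91 at day 1 to 3.04 at day 6 (median 0.79). Ccnb2, a B-type cyclin, ranged from -2.20 at week 12 to 5.51 at week 18 on LFC (median 0.56) and from -2.62 at day 1 to 2.13 at day 10 on HFC (median 0.84). Each was higher on HFC in 5 of 11 pairs, and the groups overlapped. The kinases had a median of -0.45, and -0.02 without week 18. Aurka, a kinase of the spindle poles, ranged from -3.87 at day 1 to 3.63 at week 18 on LFC (median -0.82) and from -2.10 at day 1 to 1.83 at day 6 on HFC (median -1.15). Plk1, which acts from mitotic entry to cytokinesis, ranged from -3.10 at week 12 to 3.86 at week 18 on LFC (median -0.41) and from -3.42 at day 1 to 0.69 at day 6 on HFC (median -0.92). Week 18 was again the highest LFC array for both, and Plk1 was higher on HFC in 6 of 11 pairs. Melk, a kinase named after its values were seen as the member with the lowest p, had a difference of -0.94 (SE 0.52, adjusted p = 0.931), higher on HFC in 4 of 11 pairs, and of -0.60 (SE 0.47) without week 18.

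Among the centromere and chromosomal passenger genes (median -0.55, and -0.11 without week 18), Birc5, a passenger protein, ranged on LFC from -1.95 at week 12 to 6.08 at week 18 (median 1.57) and on HFC from -2.62 at day 1 to 3.35 at day 6 (median 1.48). Cenpe, a kinesin of the kinetochore, ranged from -2.34 at week 12 to 4.77 at week 18 on LFC (median 0.59) and from -2.48 at day 1 to 2.31 at day 6 on HFC (median 0.30). Both were higher on HFC in 5 of 11 pairs, with overlapping groups. The kinesin, spindle and cytokinesis genes had a median of -0.50, with 8 of 9 below 0, and without week 18 a median of -0.19, with 6 of 9 below 0. Leaving out the pairs of LFC day 14 and week 3 as well gave role medians of -0.19 (proliferation markers), -0.12 (licensing), 0.03 (clamp), -0.04 (G1/S), -0.16 (mitotic cyclins), -0.04 (kinases), -0.11 (centromere) and 0.01 (kinesins). With only those 2 pairs left out, the role medians lay between -0.69 and -0.33. Prc1, which bundles microtubules of the midzone, ranged from -2.85 at week 12 to 3.96 at week 18 on LFC (median 0.55) and from -3.49 at day 1 to 2.12 at day 6 on HFC (median -0.43). Racgap1, which acts in cytokinesis, had another order, from -4.70 at week 9 to 5.45 at week 3 on LFC (median -1.58) and from -4.38 at week 9 to 2.54 at week 18 on HFC (median -0.79). The dim LFC array of week 3 was thus its highest, where week 18 was the highest for the other members just named.

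**Figure D2:**
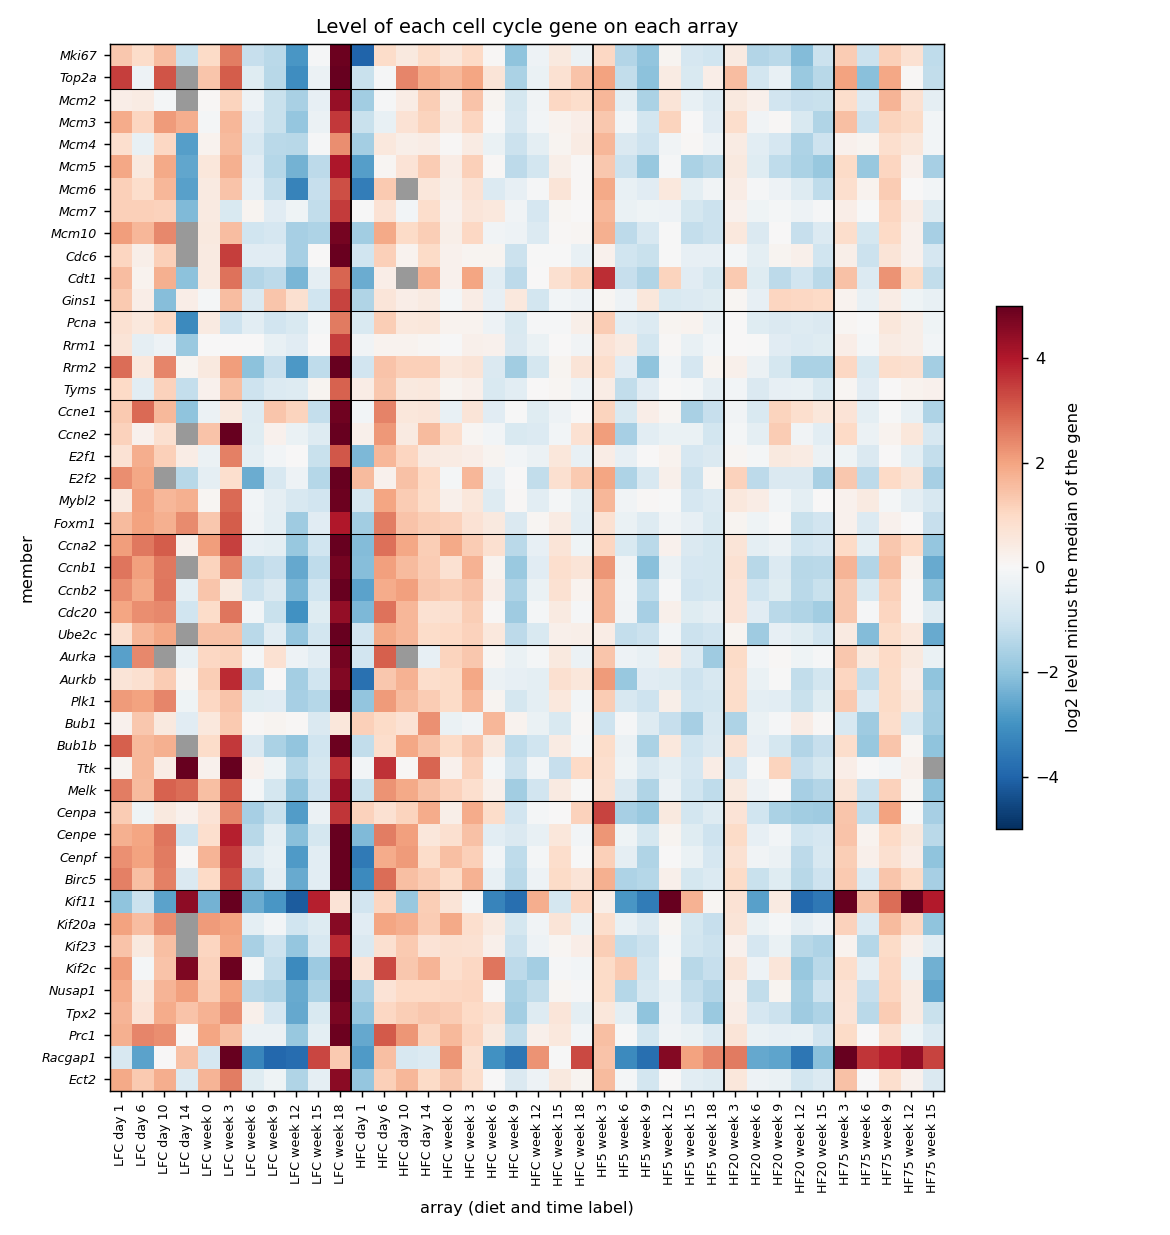
The log2 level of each of the 47 members minus that gene's median over the arrays is shown by colour for 38 arrays grouped by diet, with genes grouped by role, grey where there is no value and a colour scale that ends at -5 and 5. Most members are high together on LFC week 18 and low together on HFC day 1 and LFC week 12, and values raised to the floor are included.

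HF5 was compared with HFC over 6 pairs of arrays. limma called 0 of 46 members and 0% of 20842 genes, and 3 members (6.52%) and 1125 genes (5.4%) had an unadjusted p under 0.05. Differences were below 0 for 38 members and above 0 for 8, with a median of -0.35, against -0.01 over genes. The median was -0.19 without week 15, -0.53 without week 12 and -0.60 with normexp, where that of genes was -0.22. In the 3 pairs that shared a slide, the members' median difference was 0.50 at week 12, -1.18 at week 15 and -0.88 at week 18, and -0.34 with the slide as a random block. The T cell list differed by 1.81, -2.72 and -2.66 in these pairs and the keratinocyte list by -2.03, 6.35 and 5.17. At week 3, the endothelial list differed by -3.81 and the fibroblast list by -2.40. The part of these lists in the result was not tested. All 6 kinases tested were below 0 (median -0.49), as were all 5 mitotic cyclin genes (-0.51) and all 4 centromere genes (-0.53). Both proliferation markers were below 0 as well (-0.60), and the clamp and nucleotide genes were near 0 (-0.01). Bub1, a spindle checkpoint kinase and the member with the lowest p, was named after its values were seen. Its HF5 levels ranged from -3.01 at week 15 to -1.39 at week 6 (median -2.27), and its HFC levels over the same weeks from -2.10 to 0.32. It was lower on HF5 in 6 of 6 pairs, with overlapping groups, and the difference of -1.0 (SE 0.19) had an adjusted p of 0.839. Another probe of Bub1 correlated with the probe used with r = 0.27.

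For HF20 against HFC, over 5 pairs, limma called 0 of 46 members and 0% of 22087 genes, while 2 members and 2700 genes (12.2%) had an unadjusted p under 0.05. Differences were below 0 for 42 members, with a median of -0.49, against 0.08 over genes. The median was -0.85 without week 9, -0.30 without week 15 and -0.82 with normexp, where that of genes was -0.32. Only the pair of week 3 was scanned on different days (median -0.51 without it). By pair, the members' median difference was -0.49 at week 3, -0.53 at week 6, 0.65 at week 9, -0.63 at week 12 and -1.45 at week 15. The T cell, B cell and lymph node lists had median differences of -1.80, -1.27 and -1.56 and the adipocyte list 2.03, with the adipocyte list highest against HFC at weeks 12 (3.60) and 15 (4.86). Their part in the result was not tested. In 6 of the 8 roles no fitted difference was above 0, among them the kinesin genes (9 tested, median -0.56) and the mitotic cyclin genes (5 tested, median -0.81), while the G1/S genes were near 0 (0.10). At week 9 the median of the kinesin genes was nevertheless higher on HF20 than on HFC (-2.91 against -3.64), as was that of the mitotic cyclin genes (-1.74 against -2.79). Cenpa, the histone variant of centromeres, was named after its values were seen. It was at -1.01, -2.66, -3.27, -3.42 and -3.46 on HF20 at weeks 3, 6, 9, 12 and 15, and at 0.18, -0.76, -2.65, -1.79 and -1.64 on HFC. It was lower on HF20 in 5 of 5 pairs, with overlapping groups, and the difference was -1.43 (SE 0.27, adjusted p = 0.394). Mki67 was at 1.99, 0.08, 0.20, -0.61 and 0.46 on HF20 and at 2.55, 1.62, -0.46, 1.30 and 2.03 on HFC. It was lower on HF20 except at week 9, and the difference was -0.98 (SE 0.42, adjusted p = 0.394, lower in 4 of 5 pairs).

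For HF75 against HFC, the probes used for Kif11 and Racgap1 rose, while the other probe of each gene did not pass the test. Kif11 and Racgap1 were 2 of 46 members tested, beside 1.11% of 20656 genes called, and the only members called in any comparison with all arrays in and weighted alike. Both were higher, as were 0.92% of genes. The other probes gave 0.31 for Kif11 (limma adjusted p = 0.9, lower on HF75 in 2 of 5 pairs) and -0.40 for Racgap1 (adjusted p = 0.904, lower in 4 of 5 pairs). Without the HF75 and HFC arrays of week 3, or without those of week 6, 0 members were called, as without the time label as a block, and 1 (Kif11) was called without those of week 9, 12 or 15. Racgap1 was not called with the scan day as a random block. Kif11, a motor that pushes the spindle poles apart, was at 1.55, -2.50, -1.19, 2.12 and -0.01 on HF75 at weeks 3, 6, 9, 12 and 15. On HFC it was at -4.09, -7.27, -7.76, -2.15 and -4.84, and it was not well above background at weeks 6 and 9. Each HF75 array lay above its HFC partner, and only at week 6 was Kif11 on HF75 below the highest HFC array. The difference was 5.21 (SE 0.37, limma adjusted p = 0.00866, higher in 5 of 5 pairs). As the HFC values of weeks 6 and 9 are the floors of those arrays, the HFC level is only an upper bound there, and the difference is at least as large as given in these pairs. Racgap1 was at 4.63, 2.79, 3.13, 3.62 and 2.61 on HF75 and at 0.01, -3.80, -4.38, 1.47 and -0.79 on HFC, so its groups did not overlap. The difference was 4.85 (SE 0.78, adjusted p = 0.046, higher in 5 of 5 pairs).

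No HF75 array shared a slide with its HFC partner, and the pairs of weeks 3, 6 and 9 were scanned on different days. Racgap1 differed by 4.62, 6.59 and 7.52 in these pairs, and by 2.14 and 3.40 in weeks 12 and 15, which were scanned on the same day. The differences of Racgap1 were thus smallest in the pairs of 1 scan day. Kif11 differed by 5.63, 4.77 and 6.57 and by 4.26 and 4.83. Its values of weeks 6 and 9 (4.77 and 6.57) are lower bounds, so whether these ranges overlapped cannot be told. With the scan day as a random block, an alternative added after seeing the data, limma gave 5.05 for Kif11 (SE 0.35, adjusted p = 0.00993) and 4.36 for Racgap1 (SE 0.78, adjusted p = 0.0564). With only the 2 pairs of 1 scan day, the limma differences were 4.55 (SE 0.42, unadjusted p = 0.000722) and 2.77 (SE 0.51, unadjusted p = 0.00772). That fit leaves 1 residual degree of freedom for a gene, so its adjusted p of 0.53 and 0.539 says nothing on whether the calls depend on the scan day. The other 3 pairs gave 5.66 (SE 0.51, adjusted p = 0.0394) and 6.24 (SE 0.65, adjusted p = 0.0561).

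At an unadjusted p under 0.05, HF75 and HFC differed for the same 2 members only (4.35% of those tested), and for 2974 genes (14.4%). The other 44 members tested lay between -0.97 and 0.59 (median -0.01), and the median over the members was 0.00, against 0.02 over genes. It was -0.47 without week 9, -0.15 without week 12, 0.06 without week 3, 0.31 without week 6 and 0.43 without week 15, -0.38 with array quality weights and -0.20 with normexp, so its sign is not settled. By pair, the members' median difference was -0.18 at week 3, -0.82 at week 6, 2.05 at week 9, 0.88 at week 12 and -1.72 at week 15. The T cell list differed by 5.28 at week 9 and -4.15 at week 15, the B cell list by 5.95 and -5.0, and the lymph node list by 5.55 and -3.85. The macrophage list had a median difference of -0.96. The part of these lists in the result was not tested.

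Kif11 and Racgap1 each had another probe on the array, and those probes gave other values. The other Kif11 probe was at -3.33, -5.87, -4.34, -4.88 and -6.98 on HF75, and correlated with the used probe with r = 0.22 over 36 arrays. It was not well above background on HF75 at weeks 6 and 15 and on HFC at weeks 9 and 12. The other Racgap1 probe was at -4.28, -6.51, -3.89, -5.89 and -7.32 (r = 0.47). It was not well above background on HF75 at weeks 6, 12 and 15 and on HFC at week 9. On HFC the other Kif11 probe was at -4.27, -4.90, -7.11, -5.76 and -4.89 and that of Racgap1 at -3.81, -4.55, -7.76, -5.42 and -4.36. A value not well above background is an upper bound, so the other Racgap1 probe was lower on HF75 at weeks 3, 6, 12 and 15 and higher at week 9. The other Kif11 probe was lower on HF75 at weeks 6 and 15 and higher at weeks 3, 9 and 12. The rise was thus called with 1 of 2 probes of each gene. The used probes of Kif11 and Racgap1 correlated with each other with r = 0.89, and both were also high on the LFC array of week 3 (3.10 and 5.45) and the HF5 array of week 12 (1.43 and 3.82). On the LFC array of week 15 they were at -0.11 and 2.55, close to HF75 at that week, and on LFC day 14 at 0.49 and 0.69. Racgap1 was at 2.54 on HFC at week 18. High levels of these probes were thus not limited to HF75. The 60 bases of each probe are printed because the result turns on which probe is read, with a GC content of 36.7% and 43.3% for Kif11 (used and not used) and 45% and 40% for Racgap1.
Kif11 probe used: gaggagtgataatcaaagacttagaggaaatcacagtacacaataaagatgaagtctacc
Kif11 probe not used: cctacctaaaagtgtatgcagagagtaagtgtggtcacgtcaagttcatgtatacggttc
Racgap1 probe used: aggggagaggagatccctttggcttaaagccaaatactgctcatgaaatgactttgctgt
Racgap1 probe not used: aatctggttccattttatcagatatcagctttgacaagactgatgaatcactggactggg

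**Figure D3:**
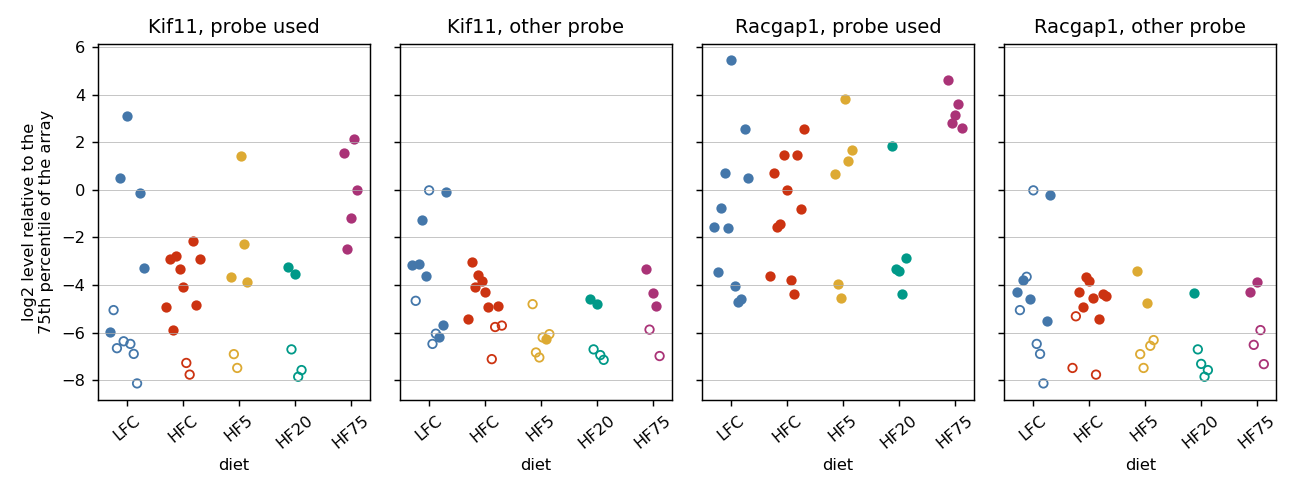
The log2 level of the used and the other probe of Kif11 and Racgap1, relative to the array's 75th percentile, is plotted for each array by diet, with filled points well above background and open points not. The used probes are higher on HF75 than on the HFC array of the same week in 5 of 5 pairs, and many points of the other probes are open.

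Time on diet was compared as weeks 3 to 18 against the first 2 weeks (days 1 to 14 and week 0). On LFC, with 6 late and 5 early arrays, limma called 0 of 46 members and 0% of 20990 genes. An unadjusted p under 0.05 was found for 0 members and 509 genes (2.42%). Differences were below 0 for 35 members, with a median of -0.51, against 0.26 over genes. All 5 mitotic cyclin genes (median -1.12) and 4 centromere genes (-0.66) were below 0, with medians of -3.32 and -3.09 without day 14, week 3 and week 18. The members' median was -0.12 without week 12, -0.26 without week 6, -0.31 without day 10, -0.32 without week 9 and -0.26 after quantile normalization, where that of genes was 0.45. It was -0.98 without day 14, -0.95 without week 3, -1.34 without both, -1.43 without week 18 and -0.84 with normexp, where that of genes was -0.36. No scan day held both early and late arrays of a diet, so scan day and period cannot be told apart. With array quality weights, 24 members were called, all lower (median -2.37), beside 5.3% of genes. Leaving out day 14, week 3 and week 18 together was chosen after the member levels had been seen, week 18 being the highest array for the members. It gave 5 of 45 members called, all lower, beside 0.166% of genes, and a median of -2.48.

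These 5 members, named after their values were seen, were Ccna2, Ccnb1 and Ccnb2 (cyclins of S phase and mitosis), Kif20a (a kinesin of cytokinesis) and Nusap1 (a spindle protein). Ccna2 was at 0.61, 1.18, 1.56, -1.20 and 0.62 on LFC at days 1, 6, 10 and 14 and week 0. At weeks 3, 6, 9, 12, 15 and 18 it was at 1.97, -1.87, -1.95, -3.37, -2.48 and 4.34. Weeks 6 to 15 were thus below all earlier LFC arrays, and weeks 3 and 18 above them. Without the 3 arrays, the difference was -3.41 for Ccna2 (SE 0.46, adjusted p = 0.0442), -3.69 for Ccnb1 (SE 0.51, adjusted p = 0.0457) and -3.32 for Ccnb2 (SE 0.48, adjusted p = 0.0482). For Kif20a it was -2.57 (SE 0.37, adjusted p = 0.0482) and for Nusap1 -3.07 (SE 0.45, adjusted p = 0.0482). The T cell list was at 1.61, -0.54, 1.19, -0.92 and -0.76 on the early LFC arrays and at -3.56, -3.16, -4.65 and -1.45 in weeks 6, 9, 12 and 15. The lymph node list was at 1.96, 0.00, 1.78, -1.21 and 0.41 early and at -3.56, -4.43, -4.70 and -2.24 in those weeks. Both lists were thus lower in weeks 6 to 15 than on any early LFC array. Without the 3 arrays, the median difference was -3.82 for the T cell list (0 of 7 called), -4.59 for the B cell list (3 of 5 called) and -4.12 for the lymph node list (3 of 6 called). The immature myeloid list was also lower, at -2.87 (7 of 7 lower, 5 at an unadjusted p under 0.05, 0 called), as were the germinal centre list at -1.70 (1 of 4 called) and the erythroid list at -1.66 (4 of 4 lower, 4 at an unadjusted p under 0.05, 0 called). The adipocyte list was at -0.96, the macrophage list at -0.54, the endothelial list at -0.49 and the fibroblast list at -0.45, with 0 called. With all arrays, where the members' median was -0.51, the lists had 0 genes called and medians of -2.64 (lymph node), -2.29 (adipocyte, 6 of 7 lower), -2.23 (T cell), -1.95 (B cell), -1.84 (endothelial, 6 of 6 lower), -1.81 (fibroblast, 7 of 7 lower), -1.59 (erythroid), -1.16 (skeletal muscle), -0.33 (immature myeloid) and -0.09 (macrophage). The part of these lists in the result was not tested.

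On HFC, with 6 late and 5 early arrays, limma called 0 of 47 members and 0% of 23303 genes, and 3 members and 2516 genes (10.8%) had an unadjusted p under 0.05. Differences were above 0 for 6 members and for 32.8% of genes, with a median of -0.56 over members and -0.26 over genes. The adipocyte list had a median difference of -1.65, the skeletal muscle list -1.22 and the keratinocyte list -1.15. The erythroid list was at -1.14 and the endothelial list at -0.67. The T cell list was at 1.55, the macrophage list at 1.06 and the B cell list at 0.92. The part of these lists in the result was not tested. All 6 G1/S genes (median -0.80), all 5 mitotic cyclin genes (-0.76) and all 4 clamp and nucleotide genes (-0.61) were below 0, while the licensing and helicase genes were near it (-0.06). Without day 1, the median was -1.07, without week 9 it was -0.34 and without day 6 it was -0.32, and with normexp it was -0.13, where that of genes was 0.24. Ccne2, an E-type cyclin named after its values were seen as the member with the lowest p, had early levels of -5.01 to -3.07 and late levels of -6.03 to -4.50. The groups overlapped, and the difference was -1.20 (SE 0.41, adjusted p = 0.432). The change from early to late differed between HFC and LFC for 0 of 46 members and 0% of 20827 genes by the limma interaction test. At an unadjusted p under 0.05 it differed for 0 members and 941 genes (4.52%). Its median over members was 0.20, against -0.49 over genes, 1.00 without the week 18 pair, -0.68 without the day 1 pair, -0.16, -0.20 and -0.10 without the pair of week 6, 12 or 15, and -0.14 after quantile normalization, so its sign is not settled. Without LFC day 14 and week 3 and their pairs it was 0.63, and without week 18 as well it was 1.67, with 0 members called in both. Among the marker lists, T cell genes had a median of 3.86 here, the B cell list 3.48 and the lymph node list 3.66, with 0 genes called and 6 of 7, 1 of 5 and 3 of 6 at an unadjusted p under 0.05. Without the 3 LFC arrays and their pairs, these medians were 5.60, 5.69 and 4.91. Their part in the result was not tested.

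Other genes of the pathway were read from lists. Of 38 further proliferation genes, 35 were found on the array, and with all arrays limma called 0 in each comparison, with 1 to 5 at an unadjusted p under 0.05. Their mean level was lowest on LFC week 12 (-3.75) and highest on LFC week 18 (1.88). The median difference was -0.55 for HFC against LFC, -0.27 for HF5, -0.38 for HF20, 0.22 for HF75, -0.66 for late LFC, -0.68 for late HFC and 0.11 for the difference between those changes. Without LFC day 14, week 3 and week 18 it was -0.02 for HFC against LFC, -2.04 for late LFC (4 called) and 1.36 for the difference, against -0.06, -2.48 and 1.67 for the members. With all arrays, these medians had the same sign as those of the members except for HF75, where the members' median was 0.00. The 21 cell cycle inhibitors and G1 regulators also had 0 called (0 to 3 at an unadjusted p under 0.05 with all arrays), and lay between -0.37 and 1.30 over the arrays, with medians of 0.10, -0.06, -0.17, -0.01, 0.01, -0.12 and -0.19 in that order of comparisons. Without the 3 LFC arrays these were 0.01, -0.37 and 0.09 for HFC against LFC, late LFC and the difference.

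Promoters were read from RefSeq (GRCm38.p6), as 300 bases that span the start of a gene, for 39 of the 47 members. The set of promoters used here held no entries for Tpx2, Ccne2, Foxm1, Kif20a, Aurkb, Ccna2, Mcm4 and Gins1. Letters were searched on both strands, and where the table held several starts of a gene, as for E2f2, a motif at any of them was counted, for members and all genes alike. The CCAAT box (CCAAT) was in 29 promoters (74.4%), against 11096 of 27025 genes (41.1%). The CHR element (TTTGAA or TTCGAA) was in 21 (53.8%, against 21.7%), and both motifs were in 20 (51.3%, against 9.65%). An E2F motif (TTTGGCGC, TTTCGCGC or TTTCCCGC) was in 7 (17.9%, against 2.12%), those of Mcm3, Mcm5, Mcm6, Mcm7, Cdc6, Cdt1 and E2f2. E2F motifs were thus in 6 of 8 licensing and helicase promoters, while CHR elements were in 6 of 7 kinesin and spindle promoters, 5 of 6 kinase promoters and 0 of 4 of the clamp and nucleotide genes. A match is a description of letters, not a binding site. The promoters of Mcm5 and Mcm6 (E2F) and of Cdc20 and Plk1 (CHR) are printed to show both kinds, with all CCAAT, CHR and E2F matches in capitals, which run together where E2F matches overlap.
Mcm5 promoter, chr8:75109259-75109558, GRCm38.p6, plus strand: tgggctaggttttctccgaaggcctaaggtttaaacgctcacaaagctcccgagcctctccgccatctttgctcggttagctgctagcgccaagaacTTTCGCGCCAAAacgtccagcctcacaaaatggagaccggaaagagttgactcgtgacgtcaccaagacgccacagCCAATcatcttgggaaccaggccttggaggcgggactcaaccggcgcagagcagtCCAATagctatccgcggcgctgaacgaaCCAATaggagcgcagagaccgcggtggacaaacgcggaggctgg
Mcm6 promoter, chr1:128359656-128359955, GRCm38.p6, minus strand: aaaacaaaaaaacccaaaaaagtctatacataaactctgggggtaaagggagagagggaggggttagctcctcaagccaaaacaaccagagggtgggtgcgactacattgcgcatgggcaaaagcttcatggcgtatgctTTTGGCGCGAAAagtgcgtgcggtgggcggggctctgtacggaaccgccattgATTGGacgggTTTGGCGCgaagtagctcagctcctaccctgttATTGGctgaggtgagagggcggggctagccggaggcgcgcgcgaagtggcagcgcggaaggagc
Cdc20 promoter, chr4:118437294-118437593, GRCm38.p6, minus strand: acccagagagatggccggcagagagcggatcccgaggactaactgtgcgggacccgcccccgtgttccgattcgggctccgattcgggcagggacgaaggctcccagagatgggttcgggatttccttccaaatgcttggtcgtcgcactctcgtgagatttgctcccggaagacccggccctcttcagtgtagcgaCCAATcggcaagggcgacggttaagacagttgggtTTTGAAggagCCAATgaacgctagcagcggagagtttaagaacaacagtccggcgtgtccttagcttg
Plk1 promoter, chr7:122159185-122159484, GRCm38.p6, plus strand: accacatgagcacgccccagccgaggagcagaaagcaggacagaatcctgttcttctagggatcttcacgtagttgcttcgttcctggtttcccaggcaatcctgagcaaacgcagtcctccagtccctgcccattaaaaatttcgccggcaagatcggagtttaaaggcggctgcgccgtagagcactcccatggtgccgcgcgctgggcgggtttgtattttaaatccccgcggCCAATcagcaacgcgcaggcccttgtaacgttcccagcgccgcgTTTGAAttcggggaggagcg

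With 1 array for each diet and time label, precision is limited by how few arrays there are. The comparisons of HF5, HF20 and HF75 share the HFC arrays, so their values are not independent of each other.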

How the data were processed

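The authors deposited 1-colour Agilent scanner files with intensity values made by Feature Extraction 10.5.1.1, per the file headers, corrected for background within each array. The deposited fold change table holds the authors' own comparisons, and of it only the gene symbols were used. The log2 intensity of each array was shifted by its 75th percentile. Control and outlier spots were dropped, repeated spots of a probe were averaged, and a value not well above background was raised, where lower, to the lowest level on its array that was. Genes well above background on 50% or more of the arrays in either group were tested with lmFit and eBayes of limma 3.58.1 (R 4.3.3), with the time label as a block between diets, and p-values were adjusted over all genes by Benjamini-Hochberg at 0.05. Other steps used Python 3.11.15 and pandas 2.3.3. The code was tested on simulated data. Pairs rest on the shared time label. Across genes, the deviations of the LFC and HFC arrays of one label from their group means correlated from -0.27 at day 1 and -0.21 at week 12 to 0.69 at week 0.

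The members and gene lists were chosen with earlier results of these data known. Values are given for members past the threshold in any comparison and for the 2 members of each role with the highest mean level. Melk, Bub1, Cenpa and Ccne2, each with the lowest p among members in a comparison, were added after their values were seen. The 10 genes most like the members' mean are named. Lists were further proliferation genes, cell cycle inhibitors and G1 regulators, and markers of macrophages, T cells, B cells, germinal centre B cells, lymph node stroma, erythroid, immature myeloid and endothelial cells, fibroblasts and preadipocytes, adipocytes, keratinocytes and skeletal muscle. Alternatives were normexp (offset 50), quantile normalization, no floor, other filters, each probe alone and array weights. Others were the slide or scan day as a random block or only pairs sharing one, no block, and arrays left out. For HFC against LFC, an unpaired t-test pooled over time labels was also run. The median signal over background ranged from 1.53 to 55.4 over the arrays.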

Additional observations from a re-analysis of the deposited data

Results flagged for a closer look

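Dixon's test compared the highest and lowest array with the others in groups of 5 or 6 arrays, for the members' median and each role median. Of these 63 sets of values, 4 had an array that stood apart, where chance gives about 1 in 20. The sets share members and arrays, so they are not independent. The arrays that stood apart were HFC day 1 and LFC week 18. On the HFC array of day 1, the median level of the members was -3.06, against -0.83 to -0.30 on the other early HFC arrays. There, the proliferation markers were at -3.30, against -0.32 to 0.73, and the kinesin, spindle and cytokinesis genes at -3.68, against -1.28 to -1.03. On the LFC array of week 18, the clamp and nucleotide supply genes were at 4.2, against 0.39 to 1.73 on the other late LFC arrays.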

How the results depend on the processing

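For HF75 against HFC, 2 members were called. The count was 1 (Racgap1) with only genes measured above background on all arrays, 1 (Kif11) without the week 9 arrays, and 0 to 1 with each pair left out. It was 0 without the time label as a block. Dropping the block called 0 members in HFC against LFC, HF5, HF20 and the interaction, as with it, and the changes within a diet had no block. In alternatives added after seeing the data, it was 1 (Kif11) with the scan day as a random block and 1 (Kif11) with only the 3 pairs scanned on different days. With only the other 2 pairs it was 0, but that fit leaves 1 residual degree of freedom for a gene and says nothing on scan day (differences of 4.55 for Kif11 and 2.77 for Racgap1). With day 14 and week 0 as 1 block, also added, the members' median was -0.49 for HFC against LFC and 0.20 for the interaction, with 0 called. For late against early LFC arrays, 0 were called, 24 with array quality weights (median -2.37), and 5 without day 14, week 3 and week 18 (median -2.48), a choice made after seeing the data. In the other comparisons the count was 0 under every alternative run. The cause of these changes was not tested.

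With each array or pair left out, the members' median was -0.69 to -0.09 for HFC against LFC, -0.53 to -0.19 for HF5, -0.85 to -0.30 for HF20, -0.47 to 0.43 for HF75, -1.43 to -0.12 and -1.07 to -0.32 for late LFC and HFC, and -0.68 to 1.00 for their difference. Normexp moved the median of all genes to -0.22 for HF5, -0.32 for HF20, -0.17 for HF75, -0.36 for late LFC, 0.24 for late HFC and 0.48 for their difference. The members' medians were then -0.60, -0.82, -0.20, -0.84, -0.13 and 0.48. For HFC against LFC, the members' median was -0.25 with normexp and -0.33 after quantile normalization. Quantile normalization moved the median of all genes to 0.45 for late LFC and 0.00 for late HFC, with member medians of -0.26 and -0.39. The slide as a random block was not run for HF20, HF75 and the changes with time within LFC or HFC, which could not be fitted. Dim arrays limit low members most, as LFC week 3 shows with 14 members well above background.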

Other observations

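The 2 arrays without a group, both labelled week 18, had member medians of -1.95 (29 members with a value) and -2.62. On the former, 21710 spots were marked as outliers. Kif11 was at -0.21 and -3.65 on them, and Racgap1 at 0.89 and 1.91.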
